A study of Mus musculus with 8 samples.

Results

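The genes described here are 10 regulators of the G1 phase of the cell cycle and of entry into S phase, taken by symbol out of 23361 gene symbols. They are the D-type cyclins Ccnd2 and Ccnd3, their kinases Cdk4 and Cdk6, the E-type cyclins Ccne1 and Ccne2, their kinase Cdk2, and the inhibitors Cdkn1b, Cdkn2c and Cdkn2d. All 10 had a row in the table, and all 10 were among the 10467 genes tested. They were measured by RNA sequencing in induced regulatory T cells (iTreg), which are CD4+ T cells driven in culture to express the transcription factor Foxp3. Both groups were made from naive CD4+ T cells of wild-type mice with a red fluorescent reporter of Foxp3 (Foxp3-RFP), stimulated with anti-CD3/CD28 beads, IL-2 and TGF-β at 2 ng/ml, and both were sorted as living Foxp3-RFP+ cells. They differed only in the sorting gate, surface neuropilin-1 (Nrp-1) being present in 4 Nrp-1+ iTreg libraries and absent in 4 Nrp-1- iTreg libraries. The sample labels give IL-2 at 50 U/ml, a culture of 3 days and, in another field, day 5, whereas the methods of the study give the IL-2 dose in another unit and a sort on day 3. The labels call the libraries biological replicates 1 to 4 of each group but name no mice or cultures, so the p-values measure the spread between these libraries, which may be partly technical.

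A resting T cell is quiescent, in G0, and enters G1 after signals from its antigen receptor, where IL-2 and D-type cyclins carry it forward. D-type cyclins activate Cdk4 and Cdk6, which begin to phosphorylate the retinoblastoma protein, and E-type cyclins with Cdk2 complete that step and open the way to DNA replication through E2F transcription factors. INK4 inhibitors such as Cdkn2c (p18) and Cdkn2d (p19) bind Cdk4 and Cdk6, whereas Cdkn1b (p27) binds cyclin-CDK complexes, above all those of Cdk2. Ccne1, Ccne2 and Cdkn2c are also known as E2F targets, so they belong both to the machinery and to its output. Much of the control of these proteins lies in their degradation and phosphorylation, which RNA levels do not show.

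Values are FPKM as the authors gave them, which relates fragments to the length of a gene and the size of its library, so levels can be set side by side between genes. A difference is given as log2 fold change of FPKM + 1, Nrp-1+ iTreg minus Nrp-1- iTreg, with its standard error (SE) and the adjusted p by limma over all genes tested, and a gene is called when that p is under 0.05. The added 1 makes the change of low genes look smaller. The read depth of the libraries, read from the steps of low values, lay between 0.810 and 1.23 of replicate 1 of Nrp-1+ iTreg. Short RNA genes (microRNA, snoRNA and the like) accounted for 1.77% of all FPKM in the library with the least and for 43.9% in that with the most, and exceeded 30% in 3 libraries, replicates 2 and 4 of Nrp-1+ and replicate 1 of Nrp-1-. Nrp1 itself, the sorted marker, had a mean of 21.5 ± 0.709 FPKM against 4.95 ± 0.262 FPKM (SD, n = 4 each, Nrp-1+ first). All 7 T cell and Treg markers were found, and of these 3 were called higher (Foxp3, Il2ra and Ikzf2), 2 lower (Cd3g and Ctla4) and 2 not (Cd3e and Cd4). Among markers of other cell types, 4 of 5 myeloid markers, all 3 B cell markers and all 3 NK cell markers were under a mean of 1 FPKM in both groups. Their summed levels were 6.92 to 7.70 FPKM against 5.88 to 7.73 FPKM for the myeloid list. For B cells they were 0.388 to 0.867 against 0.193 to 0.586 FPKM, with Ms4a1 listed at 0 in every library, and for NK cells at most 0.210 FPKM. Most of the myeloid sum was Itgam (mean 6.70 against 5.56 FPKM). Cd68 came next (mean 0.642 against 0.898 FPKM), with a highest value of 1.57 FPKM among the Nrp-1- libraries. The CD8 markers summed to 7.10 to 8.78 FPKM against 9.33 to 11.3 FPKM, carried by Cd8b1, while Cd8a stayed at a mean of 0.057 FPKM and 0.047 FPKM. The hemoglobin gene Hba-a1, the only one of 3 listed erythroid markers with a row, held 5.48 to 7.53 FPKM against 2.01 to 3.25 FPKM (adjusted p = 0.00051 by limma). Whether Hba-a1, Itgam and Cd8b1, which moved with the sort, have a part in the results was not tested.

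Most of the G1 machinery was higher in Nrp-1+ iTreg. Of the 10 genes, 8 rose, where 20.9% of all genes tested were called higher. Only Cdkn1b fell, where 20.0% of all genes tested were called lower, and Ccnd2 was not called. Any call was made for 40.9% of all genes tested. The rises ran from 16.7% for Ccnd3 to 127% for Ccne2. The median log2 fold change was 0.32 over the 10 genes and -0.016 over all genes tested, and the median absolute change 0.32 against 0.12. In 9 of the 10 genes the groups did not overlap, which was so for 39.5% of all genes tested. Within a group the libraries lay close, with a coefficient of variation from 1.64% for Ccnd2 in Nrp-1+ iTreg to 10.98% for Cdk6 in Nrp-1- iTreg. In sorted bulk RNA, more RNA per cell and more cells in a cycle phase that carries that RNA cannot be told apart. Across all genes, 2189 were called higher and 2093 lower (51.1% of calls higher). Rescaling the libraries without short RNA genes turned this split into 2955 and 1065 (73.5% higher), and correcting for GC content and length into 1840 and 2753 (40.1% higher), while 8 G1 genes were higher and 1 lower in both of these fits. Without the 3 libraries rich in short RNA, 8 were higher and 1 lower too, beside 1544 and 1280 of all genes.

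**Figure D1:**
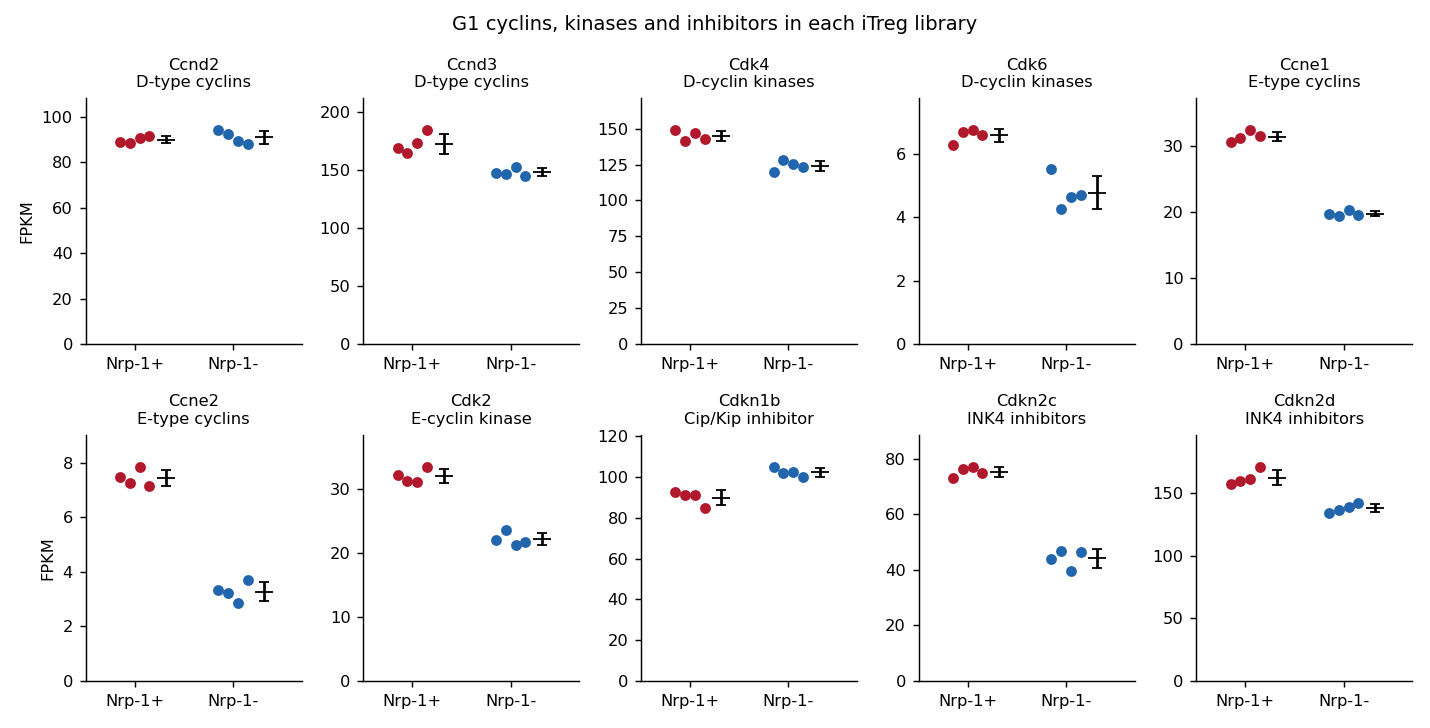
FPKM of the 10 G1 genes in each library, with 4 Nrp-1+ iTreg libraries (red) and 4 Nrp-1- iTreg libraries (blue) in every panel, points in the order of replicates 1 to 4 and the mean with its SD as a black bar. Every axis starts at 0; the points of the 2 groups are apart in each panel but that of Ccnd2, and only in that of Cdkn1b do the red points lie lower.

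**Figure D2:**
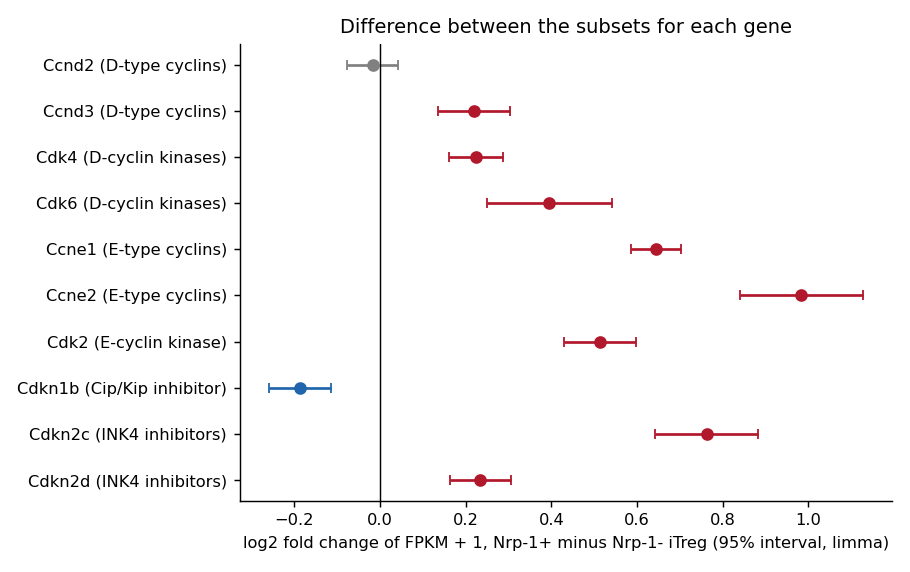
Log2 fold change of FPKM + 1 between Nrp-1+ and Nrp-1- iTreg for each gene with its 95% interval from the limma fit (red, called higher; blue, called lower; grey, not called). Ccne2 lies farthest to the right at 0.98, Cdkn1b is at -0.19, and the interval of Ccnd2 spans 0.

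Ordered by level, the machinery ran the same way in both groups down to the 8 most abundant genes: Ccnd3, Cdkn2d, Cdk4, Cdkn1b, Ccnd2, Cdkn2c, Cdk2 and Ccne1. In Nrp-1+ iTreg 3 neighbours in this order had overlapping ranges, namely Ccnd3 with Cdkn2d, Cdkn1b with Ccnd2, and Cdk2 with Ccne1. In Nrp-1- iTreg no neighbours overlapped. Only the last places were exchanged, since Ccne2 was above Cdk6 in Nrp-1+ iTreg and below it in Nrp-1- iTreg. Against all genes tested, mean levels stood between the 23.6 percentile (Ccne2) and the 94.6 percentile (Ccnd3).

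The D-type cyclins parted from each other. Ccnd3, the D-type cyclin that developing lymphocytes depend on (chromosome 17, 47505051 to 47599691, plus strand, GRCm38), was at 168.8, 165.0, 173.3 and 184.7 FPKM in replicates 1 to 4 of Nrp-1+ iTreg and at 147.6, 147.0, 153.2 and 145.2 FPKM in those of Nrp-1- iTreg. Each Nrp-1+ library was above each Nrp-1- library, with the highest value in replicate 4 of Nrp-1+ iTreg. The means were 173.0 ± 8.51 and 148.3 ± 3.41 FPKM (SD, n = 4), a log2 fold change of 0.22 (SE 0.036, adjusted p = 0.0019 by limma). Ccnd2, the D-type cyclin that mitogens and cytokines induce in T cells (chromosome 6, 127125162 to 127152193, minus strand), was at 88.7, 88.6, 90.5 and 91.7 FPKM in Nrp-1+ iTreg and at 94.2, 92.5, 89.2 and 88.2 FPKM in Nrp-1- iTreg. The Nrp-1+ range lay within the Nrp-1- range, in which 94.2 and 92.5 FPKM were above every Nrp-1+ value. The log2 fold change was -0.018, with a 95% interval from -0.078 to 0.042 (adjusted p = 0.62 by limma), so that a rise as large as that of Ccnd3 lies outside it. After rescaling without short RNA genes the sign turned (0.044), again without a call. Ccnd1, the other D-type cyclin, had mean levels of 0.35 FPKM against 0.34 FPKM, under the minimum for testing.

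Both D-cyclin kinases rose. Cdk4 (chromosome 10, 127063534 to 127067920, plus strand) was at 149.0, 141.5, 146.8 and 143.0 FPKM in replicates 1 to 4 of Nrp-1+ iTreg against 119.8, 128.3, 125.2 and 123.2 FPKM in Nrp-1- iTreg, a rise of 16.9% (log2 fold change 0.22, SE 0.027, adjusted p = 0.00037 by limma). No library of one group reached the other. Cdk6, the partner kinase with the same substrates (chromosome 5, 3341485 to 3531008, plus strand), was far lower, at 6.28, 6.70, 6.75 and 6.60 FPKM against 5.51, 4.27, 4.64 and 4.70 FPKM. Its rise was 37.6% (log2 fold change 0.39, SE 0.064, adjusted p = 0.0016 by limma), and replicate 1 of Nrp-1- iTreg lay closest to the other group. Tspan31, on the opposite strand, overlaps Cdk4 by 641 bases and rose as well (33.9 against 26.5 FPKM, log2 fold change 0.34, adjusted p = 3.9e-05 by limma), and Bysl overlaps Ccnd3 by 361 bases (23.8 against 21.2 FPKM, 0.16, adjusted p = 0.0029). Pmel, at 1.23 FPKM against 1.47 FPKM, overlaps Cdk2 by 837 bases. Antisense genes overlap Ccnd2 and Cdk6. The study's methods and the sample labels name different library kits, and strand use in counting is not given in the sources used here, so reads from the overlaps cannot be assigned to either gene.

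The E-type cyclins and their kinase were among the genes that rose most. Ccne1 (chromosome 7, 38097984 to 38107534, minus strand) was at 30.7, 31.2, 32.4 and 31.5 FPKM in replicates 1 to 4 of Nrp-1+ iTreg and at 19.7, 19.5, 20.4 and 19.5 FPKM in Nrp-1- iTreg. The spread within each group was a small part of the gap, and the rise was 59.1% (log2 fold change 0.64, SE 0.025, adjusted p = 5.8e-07 by limma). Ccne2, which acts on the same kinase (chromosome 4, 11191351 to 11204779, plus strand), was at 7.47, 7.28, 7.86 and 7.17 FPKM against 3.35, 3.23, 2.85 and 3.70 FPKM. The lowest Nrp-1+ value, 7.17 FPKM, was far above the highest Nrp-1- value, 3.70 FPKM, and the ratio of means was 2.27. On the log2(FPKM + 1) scale the change was 0.98 (SE 0.063, adjusted p = 8.2e-06 by limma), which ranks 198 among the 10467 genes tested by absolute size. Ints8, on the opposite strand, shares 5622 bases with Ccne2 and was at 18.8 FPKM against 18.2 FPKM (log2 fold change 0.045, adjusted p = 0.26 by limma), so it did not move with Ccne2 by this test.

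Cdk2, the kinase of E-type and A-type cyclins (chromosome 10, 128697939 to 128705031, minus strand), was at 32.3, 31.3, 31.2 and 33.5 FPKM in replicates 1 to 4 of Nrp-1+ iTreg and at 22.1, 23.6, 21.3 and 21.7 FPKM in Nrp-1- iTreg. The groups were apart by more than the whole range within either, with a rise of 44.6% (log2 fold change 0.51, SE 0.037, adjusted p = 1.6e-05 by limma). Cdkn1b, the p27 inhibitor of these complexes (chromosome 6, 134920401 to 134925513, plus strand), went the other way, at 92.5, 91.1, 91.3 and 84.7 FPKM in Nrp-1+ iTreg and at 105.1, 101.8, 102.5 and 100.1 FPKM in Nrp-1- iTreg. The lowest of the 8 values was that of replicate 4 of Nrp-1+ iTreg, and without it the log2 fold change was -0.16 in place of -0.19 (SE 0.031, adjusted p = 0.0020 by limma over all 8). The means were 89.9 ± 3.55 and 102.4 ± 2.06 FPKM (SD, n = 4), a change of -12.2%.

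Promoter windows from RefSeq (GRCm38.p6, 250 bases before to 50 after the start) matched 8 of the 10 genes with 10 windows, Ccnd3 and Cdkn2c having more than 1 and Ccnd2 and Ccne2 none. The E2F words TTTCCCGC, TTTGGCGC, TTTCGCGC and TTTGCCGC, searched on both strands, occurred in the window of 1 of these 8 genes, Cdk2, against 5.26% of the 7700 tested genes with a window and 2.26% of all 32851 windows. The CCAAT word occurred in the windows of 5 of the 8 genes (Ccnd3, Cdk2, Cdkn1b, Cdkn2c and Cdkn2d) against 43.6% of these tested genes and 37.4% of all windows, with no base shared between the E2F and CCAAT words of Cdk2. The FOXO word TGTTTAC was found in 1 gene, Ccnd3, against 3.04% of the tested genes and 3.65% of all windows, and the CHR word TTTGAA in none of the 8, against 13.9% and 17.9%. A match is a run of letters and not a measured binding site. The 250 bases before the start are printed for Cdk2, which holds the E2F word, and for Cdkn1b, the inhibitor that moved against it, 5′ to 3′ on the strand of each gene with E2F and CCAAT words in capitals.
Cdk2, chr10:128705052-128705301, minus strand: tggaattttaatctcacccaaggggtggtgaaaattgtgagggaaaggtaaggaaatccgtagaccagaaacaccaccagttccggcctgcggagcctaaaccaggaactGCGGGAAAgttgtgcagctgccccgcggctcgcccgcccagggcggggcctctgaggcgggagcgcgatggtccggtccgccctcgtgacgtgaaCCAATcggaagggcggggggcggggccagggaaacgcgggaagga
Cdkn1b, chr6:134920151-134920400, plus strand: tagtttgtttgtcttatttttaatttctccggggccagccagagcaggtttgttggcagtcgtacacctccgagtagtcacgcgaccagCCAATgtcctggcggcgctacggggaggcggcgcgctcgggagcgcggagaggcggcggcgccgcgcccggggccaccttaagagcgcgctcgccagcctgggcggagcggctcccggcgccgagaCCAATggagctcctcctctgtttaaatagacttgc

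The E2F word of Cdk2 lies on the opposite strand, with its first printed base 140 bases before the start, and the CCAAT word begins 45 bases before it. Cdkn1b holds CCAAT at 161 and 35 bases before the start, and 1 more match, on the opposite strand, lies after the start.

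Both INK4 inhibitors rose, by different amounts. Cdkn2c, the p18 inhibitor of Cdk4 and Cdk6 (chromosome 4, 109660876 to 109667189, minus strand), was at 73.2, 76.3, 77.2 and 74.8 FPKM in replicates 1 to 4 of Nrp-1+ iTreg and at 43.8, 46.8, 39.5 and 46.5 FPKM in Nrp-1- iTreg. The rise was 70.8% (log2 fold change 0.76, SE 0.052, adjusted p = 1.2e-05 by limma), the second largest of the 10 genes after Ccne2. Cdkn2d, the p19 inhibitor (chromosome 9, 21288410 to 21291407, minus strand), was at 157.5, 160.1, 161.5 and 171.2 FPKM against 134.2, 136.8, 139.0 and 142.1 FPKM, a rise of 17.8% (log2 fold change 0.23, SE 0.031, adjusted p = 0.00056 by limma). In neither gene did the groups overlap. Under a joint fit of replicate block and GC content and length correction, Cdkn2d was no longer called (log2 fold change 0.18, adjusted p = 0.064).

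Ratios of related genes within a library, which do not depend on how libraries were scaled, differed between the groups for the D-type cyclins, the E-type cyclins, the INK4 inhibitors and Cdk2 with Cdkn1b. Each of 5 ratios was compared by an exact two-sided permutation test, which cannot go below p = 0.0286 with 4 libraries against 4. The ratio of Ccnd2 to Ccnd3 was 0.526, 0.537, 0.522 and 0.496 in replicates 1 to 4 of Nrp-1+ iTreg and 0.638, 0.629, 0.582 and 0.607 in Nrp-1- iTreg, so it was 0.85 times as high in the former. The ratio of Ccne1 to Ccne2 was 4.10, 4.29, 4.13 and 4.39 against 5.89, 6.04, 7.16 and 5.27, or 0.70 times as high. Cdkn2c to Cdkn2d stood at 0.465, 0.477, 0.478 and 0.437 against 0.327, 0.342, 0.284 and 0.327, or 1.45 times as high. The ratio of Cdk2 to Cdkn1b was 0.349, 0.344, 0.341 and 0.396 against 0.210, 0.231, 0.208 and 0.217, or 1.65 times as high. In these 4 ratios the groups did not overlap, with an exact permutation p of 0.0286 each and 0.036 after Benjamini-Hochberg adjustment over the 5 ratios. The ratio of Cdk4 to Cdk6 was 23.7, 21.1, 21.7 and 21.7 against 21.7, 30.1, 27.0 and 26.2, which overlapped (exact permutation p = 0.0857, adjusted 0.0857), and a difference between these kinases was not shown.

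**Figure D3:**
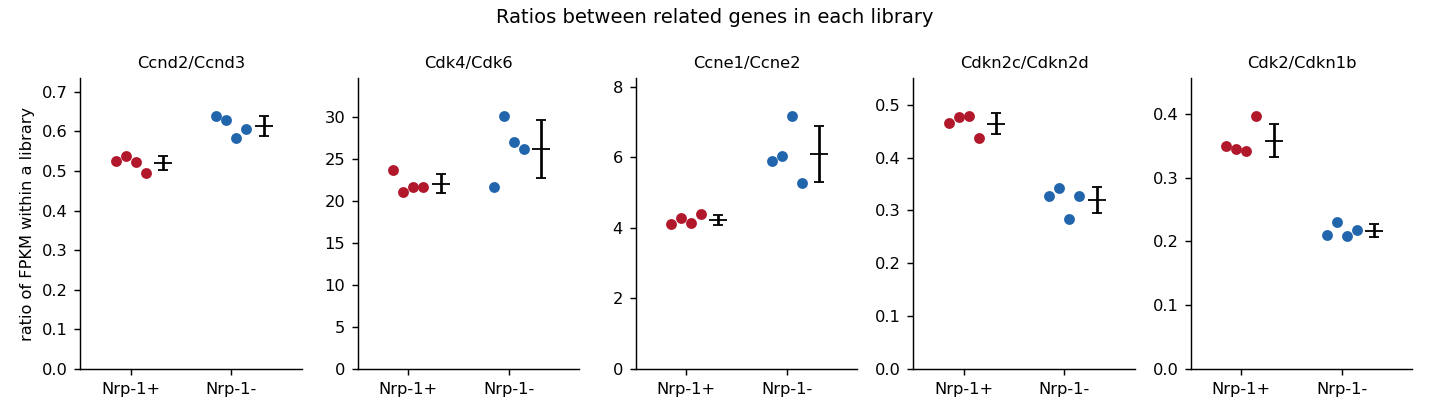
Ratio of the FPKM of 2 related genes within each library, for 4 Nrp-1+ (red) and 4 Nrp-1- (blue) iTreg libraries, with the mean and SD as a black bar and every axis starting at 0. The groups are apart in 4 panels and overlap in that of Cdk4/Cdk6, where replicate 1 of Nrp-1- iTreg lies at 21.7.

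Summed by role, the E-type cyclins came to 38.9 ± 0.957 against 23.1 ± 0.233 FPKM (SD, n = 4 each, Nrp-1+ first), and Ccne2 made up 19.1% of that sum against 14.2%. The D-type cyclins summed to 262.8 ± 9.94 against 239.3 ± 4.09 FPKM, with Ccnd3 at 65.8% of the sum against 62.0%. Cdk4 and Cdk6 together were at 151.7 ± 3.29 FPKM against 128.9 ± 3.07 FPKM. The 2 INK4 inhibitors rose more than these kinases in sum, to 238.0 ± 6.37 from 182.2 ± 4.98 FPKM, and the sum of Cdk4 and Cdk6 over that of the INK4 inhibitors was 0.608 to 0.673 in Nrp-1+ iTreg and 0.678 to 0.728 in Nrp-1- iTreg. The 3 inhibitors summed to 327.9 ± 3.39 against 284.6 ± 3.32 FPKM, of which Cdkn1b was 27.4% against 36.0%. D-type cyclins over the 3 inhibitors came to 0.774 to 0.836 in Nrp-1+ iTreg and 0.808 to 0.863 in Nrp-1- iTreg, and these ranges overlapped. The 4 cyclins over the 3 kinases came to 1.58 to 1.72 against 1.68 to 1.80, which overlapped as well. These sums are descriptions and were not tested.

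Among other regulators of G1, 8 of the 19 genes tested rose (42.1%, against 20.9% of all genes tested) and 3 fell (15.8%, against 20.0%), with a median log2 fold change of 0.0043. The share that fell is thus no more than that over all genes. On the log2(FPKM + 1) scale the rises were led by Cks1b, a subunit of cyclin-CDK complexes and of the ligase that marks p27 for degradation (157.7 against 86.9 FPKM, log2 fold change 0.85, adjusted p = 3.7e-06 by limma), by Cdkn1a, the p21 inhibitor of the Cdkn1b family (61.9 against 34.7 FPKM, 0.82, 6.8e-06), and by Skp2, the subunit of the same ligase that recognises p27 (4.32 against 2.50 FPKM, 0.61, 0.00050). As a ratio of means the largest called rise was 2.33, that of Cdkn2a, named after its values were seen (1.46 against 0.626 FPKM, 0.58, 0.0081). Cdkn2a was close to the minimum mean of 1 FPKM and passed it only through the Nrp-1+ libraries. Its place among the 8 rises thus hung on the group where it was high. Cdkn1a and Cdkn1b, inhibitors of 1 family, lay on opposite sides. The falls were small, with Cdk7, the kinase that activates CDKs (4.22 against 4.98 FPKM, -0.20, 0.018), Ambra1, which directs D-type cyclins to degradation (18.6 against 20.7 FPKM, -0.15, 0.0037), and Cdc37, a chaperone partner of Cdk4 (130.2 against 140.0 FPKM, -0.10, 0.0078). Over the 21 limma alternatives 6 to 9 of the list were called higher. After rescaling without short RNA genes none of the list was called lower, and with the GC content and length correction 5 were. Ccnd1, Cdkn2b and Cables1 were under the minimum, and Skp1 and Skp1a are names of 1 gene.

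Downstream of the G1 kinases, 10 of the 13 genes of the Rb and E2F family rose (76.9%, against 20.9% of all genes tested) and none fell by limma (Rbl2, E2f4 and E2f5 were not called, and none fell under the 21 limma alternatives or the exact Mann-Whitney test at an unadjusted p under 0.05), with a median log2 fold change of 0.51. E2f8 was at 28.5 against 14.6 FPKM (0.92, adjusted p = 2.3e-07 by limma), E2f7 at 6.26 against 3.12 FPKM (0.82, 4.5e-06) and E2f1 at 11.8 against 6.32 FPKM (0.81, 8.8e-05). E2f7 and E2f8 are repressors of the family and E2f1 an activator. All 11 tested cyclins, kinases and regulators of S, G2 and M phase rose, against 20.9% of all genes tested, with a median of 0.83, led by the S-phase cyclin Ccna2 (169.2 against 86.9 FPKM, 0.95, adjusted p = 1.6e-07 by limma), by Ccnf (43.4 against 22.1 FPKM, 0.94, 4.3e-07) and by the mitotic kinase Plk1 (61.0 against 31.5 FPKM, 0.93, 4.3e-07). Ccna1 and Ccnb3 were listed at 0 in all libraries. Except for Ccne2, each of the 10 G1 genes had a smaller log2 fold change than that median, a comparison of values that was not tested.

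Of 20 tested cyclins and CDKs that act in transcription or outside the cycle, 4 rose (20.0%, against 20.9% of all genes tested) and 5 fell (25%, against 20.0%), with a median log2 fold change of -0.053. The median absolute change was 0.116 both in this list and over all genes tested, so the list lay near the background. Cdk19, a kinase of the Mediator complex, was at 31.8 against 26.5 FPKM (0.25, adjusted p = 3.8e-05 by limma), Ccng1, a p53 target, at 142.8 against 126.4 FPKM (0.17, 0.0039) and Cdk5, best known from neurons, at 11.5 against 10.1 FPKM (0.17, 0.017). The splicing-linked cyclins Ccnl1 (28.0 against 34.7 FPKM, -0.31, 0.00085) and Ccnl2 (19.8 against 24.4 FPKM, -0.29, 0.00011) fell, and so did Cdk12, a kinase of RNA polymerase II (11.3 against 12.8 FPKM, -0.17, 0.0053). Called rises in this list were 2 under quantile normalization, the replicate block, the GC content and length correction and the block with that correction, and called falls ranged from 3 after rescaling to 9 with that correction.

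**Figure D4:**
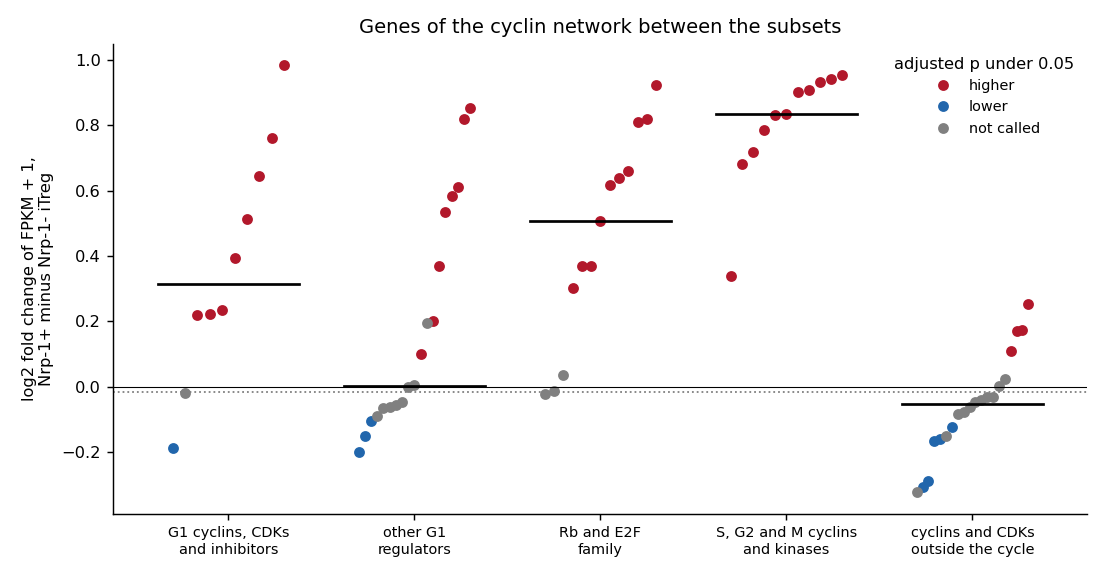
Log2 fold change of FPKM + 1, Nrp-1+ minus Nrp-1- iTreg, for each tested gene of 5 lists, ordered by value within a list (red, called higher; blue, called lower; grey, not called). Black lines are list medians, from 0.83 for S, G2 and M genes to -0.053 for cyclins and CDKs outside the cycle, and the dotted line is the median of all genes tested at -0.016.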

How the data were processed

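RNA of 4 Nrp-1+ and 4 Nrp-1- iTreg libraries was sequenced. Reads were processed by the authors in the CLC Genomics Workbench, and FPKM from Cufflinks were deposited, 1 value per gene symbol and library. The submitters' processing notes name GRCm38 and mm10; annotation and aligner settings are not given in the sources used here. FPKM is no count, and read totals are not used, so counting error is not given.

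Genes with a mean of at least 1 FPKM were fitted on log2(FPKM + 1) with limma 3.58.1 (eBayes with intensity trend, R 4.3.3) and Benjamini-Hochberg adjustment. Of 23361 symbols, 7072 were at 0 throughout. Exact permutation tests used scipy 1.17.1 on Python 3.11.15. The fit was tested on simulated data with independent noise for each gene, which do not carry the unequal short RNA shares of these libraries. Positions and overlaps are from GENCODE M21 (GRCm38), promoters from RefSeq. The members, gene lists and tests were chosen with earlier results of these data known. Named genes beside them are the up to 3 largest called rises and falls of each list. Alternatives were pseudocounts of 0.1 and 0.5, no filter or a mean of 5 FPKM, size factors, quantile normalization, rescaling without short RNA genes, a replicate block, no trend, array weights, correction for GC content and length (known for 99.5% of tested genes), an exact Mann-Whitney test (named in the study) and each library left out. Leaving out the 3 libraries with over 30% of FPKM on short RNA genes was chosen after seeing the data. The study's nTreg were not analysed here.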

Additional observations from a re-analysis of the deposited data

Results flagged for a closer look

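In a search for a library far from the other 3 of its group, over 34 groups of values of which chance gives about 1.7, replicate 4 of Nrp-1+ iTreg had a ratio of Cdk2 to Cdkn1b of 0.396, where the others of its group had 0.341 to 0.349. Without it the log2 difference of this ratio between the groups was 0.67 in place of 0.72. The relative depth of replicate 3 of Nrp-1+ iTreg was 1.22 against 0.992 to 1.01.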

How the results depend on the processing

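Over the 21 limma alternatives, 7 or 8 of the 10 genes were called higher and 1 lower. There were 7 only under the replicate block with GC content and length correction, where Cdkn2d was lost. The exact Mann-Whitney test at an unadjusted p under 0.05 gave 8 and 1. With 4 libraries against 4 it passes only where the groups do not overlap, so it repeats that count. With the replicate block alone, 8 were higher and 1 lower beside 1931 and 1675 of all genes, and among listed genes it ended the calls of Cdk7 (adjusted p = 0.068 by limma), Cdk2ap2 (0.088), Ccng2 (0.053), Cdk5 (0.072) and the marker Cd3g (0.12). The labels give only a number for pairing. Deviations of same-numbered libraries from their group means correlated at -0.26 on average over all tested genes and at -0.072 without short RNA genes. In neither set was a library closest to its own number. Ccnd2 turned to 0.044 after rescaling without short RNA genes. Genes lower in Nrp-1+ iTreg across the table, 2093 as reported, numbered 1065 after that rescaling and 1280 without the 3 libraries rich in short RNA, where fewer samples were fitted. Among 19 genes named from the other lists, 7 lost their call under at least 1 alternative that tested them (Cdk7, Ambra1, Cdc37, Ccng1, Cdk5, Cdk12 and Cdkn2a), and 4 (Skp2, Cdk7, E2f7 and Cdkn2a) were not tested at a minimum mean of 5 FPKM. Leaving out 1 library at a time gave 8 and 1 of the 10 genes each time, between 1953 and 2046 genes higher and 1770 to 1912 lower across the table, and every ratio kept its direction, with the log2 Cdk4/Cdk6 ratio from -0.33 to -0.17. The sign-flip test over same-numbered pairs cannot pass 0.05 with 4 pairs.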
